A study of Homo sapiens with 12 samples.

Results

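The genes described here are 10 that act in the breakdown of glucose to pyruvate and in the making and export of lactate. They were taken by symbol from the deposited RNA table, which has 35337 genes, and comprise GPI, PFKL, PFKM, PFKP, ALDOA, ENO1, PKM, LDHA, LDHB and SLC16A1. All 10 were in the table and all 10 passed the filter on low values. RNA was measured by CEL-seq, which reads the 3′ end of each poly(A) transcript, in EndoC-βH3 cells, a human beta-like line from fetal pancreas that was immortalised with hTERT and the large T antigen of SV40. The non-senescent group (n = 6) was the untreated control, and the senescent group (n = 6) had received 4-hydroxytamoxifen for 3 weeks, which activates a CreER recombinase that removes both transgenes. The labels give the genotype as WT for both groups, and all cells carried CreER. Titles carry the letter A (2 libraries per group) or B (4 per group), read here as the 2 batches that the study's methods mention. Exposure to 4-hydroxytamoxifen, loss of the transgenes and the senescent state cannot be told apart in this design, and nothing in the labels says that libraries came from separate cultures, so the p-values measure the spread between these libraries, which may be technical.

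Glycolysis turns glucose into pyruvate in the cytosol. Most tissues can reduce pyruvate to lactate with lactate dehydrogenase A and export it through the monocarboxylate carrier MCT1, encoded by SLC16A1. Mature beta cells keep LDHA and SLC16A1 very low, so that pyruvate enters mitochondria and pyruvate released during exercise does not trigger insulin secretion, and both are counted among the beta-cell "disallowed" genes, which are active in nearly all other tissues.

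Libraries held 8873569 to 17106776 reads in batch A and 4672924 to 7063264 in batch B. All 12 beta and endocrine markers of the labelled cell type were above the filter, with a summed level of 527970 to 675473 normalised read counts in non-senescent and 674588 to 888881 in senescent libraries. The normalised read count is the read number divided by 1 size factor per library. INS, which encodes insulin, was higher in senescent cells by 2.23 ± 0.11 and the proliferation marker MKI67 was lower, at -2.83 ± 0.14 (log2 fold change ± SE). Most of the summed level was from CHGA, with a mean of 553090 in non-senescent and 646103 in senescent libraries. INS was at 11021 to 34331 in non-senescent and 49685 to 185508 in senescent libraries. By the calls defined below, INS, IAPP, PDX1 and CHGB of the 12 were higher and PCSK1 was lower (-1.06 ± 0.12). NKX6-1 was at -0.37 ± 0.11, under the fold limit. Other cell types' markers were low: 4 immune genes summed to 22.3 to 51.1 against 17.5 to 40.9, 6 mesenchymal genes to 25.4 to 171 against 24.2 to 84.7, and 7 acinar and duct genes to 276 to 437 against 222 to 405. CD3E, PDGFRB, LUM, PRSS1, CELA3A and PNLIP had at most 3 reads in any library. Of the same lists, CPA1, KRT19, COL1A1, COL3A1, ACTA2, PTPRC and CD68 passed the filter. The summed level of GCG, SST, PPY and GHRL was 164340 to 290369 in non-senescent and 115463 to 145611 in senescent libraries, and its part in the results was not tested. In bulk RNA, fewer cells expressing a gene and less RNA per cell cannot be told apart.

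The RNA for both lactate dehydrogenases, for the lactate carrier and for 1 of the 3 phosphofructokinases was lower in senescent cells, while the RNA for the liver-type phosphofructokinase was higher. Calls required a change of more than 1.5-fold and an adjusted p (Benjamini-Hochberg) under 0.1 in a limma fit of log2(normalised read count + 1) over 13847 genes with batch as a covariate, and fold changes are on that scale. Of the 10 genes, 5 were called, 4 lower (LDHA, SLC16A1, LDHB, PFKP) and 1 higher (PFKL). Among all tested genes 23.4% were called, 11.6% higher and 11.8% lower. Another 3 (PFKM, ENO1, ALDOA) passed the adjusted p with a fold change under 1.5, and 2 (GPI, PKM) did not pass it. An adjusted p under 0.1 was reached by 45.5% of all genes. The median log2 fold change of the 10 genes was -0.36, against 0.012 for all tested genes, whose median standard error was 0.16.

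**Figure D1:**
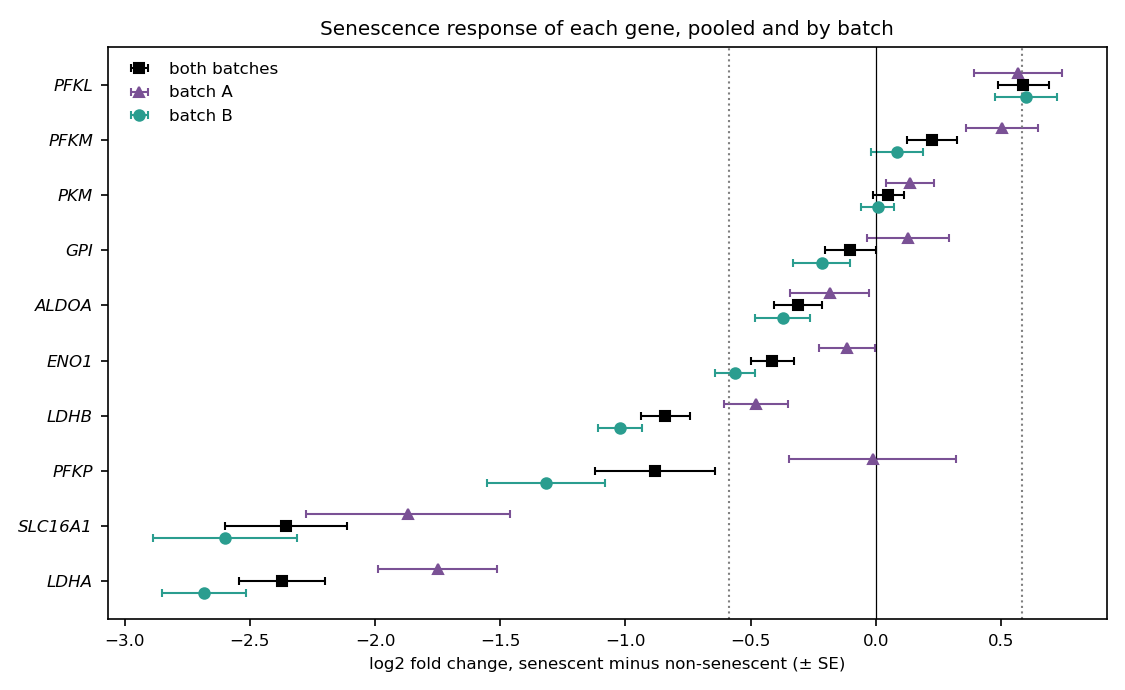
The log2 fold change of each of the 10 genes (horizontal axis, senescent minus non-senescent, bars are ± 1 SE) is drawn for both batches together (squares), batch A (triangles) and batch B (circles), with dotted lines at a fold change of 1.5. LDHA and SLC16A1 lie left of all others in every series, at -2.37 and -2.36 for both batches together, and PFKL is the only gene at the right-hand line, at 0.59.

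LDHA (chr11:18394560-18408425, plus strand, a protein-coding gene on GRCh38) encodes the muscle-type subunit of lactate dehydrogenase, which favours the reduction of pyruvate to lactate. In non-senescent cells its level was 834 and 908 normalised read counts in batch A and 390, 428, 506 and 610 in batch B. In senescent cells it was 254 and 263 in batch A and 54.5, 87.1, 93.9 and 64.8 in batch B. Every senescent library was below every non-senescent library, and batch A was higher than batch B in both groups. LDHA fell 5.18-fold, with a log2 fold change of -2.37 ± 0.17 (limma adjusted p = 9.42e-09). Batch A gave -1.75 ± 0.24 and batch B -2.68 ± 0.17, a difference that did not pass the interaction test (adjusted p = 0.115). As reads per 1000000 of a library, LDHA took 117 to 129 in non-senescent batch A and 33.0 to 33.3 in senescent batch A, and 54.6 to 85.4 against 7.23 to 12.6 in batch B.

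SLC16A1 (chr1:112911847-112957593) encodes MCT1, which carries lactate and pyruvate across the plasma membrane. Its level was 58.4 to 81.8 normalised read counts in the 6 non-senescent libraries (median 70.7) and 6.06 to 24.7 in the 6 senescent libraries (median 14.9). The groups did not overlap, and the highest senescent value was in batch A. SLC16A1 fell 5.12-fold (log2 fold change -2.36 ± 0.25, limma adjusted p = 7.81e-07). Batch A gave -1.87 ± 0.41 and batch B -2.60 ± 0.29 (interaction adjusted p = 0.541). These levels rest on few reads, 119 and 102 in non-senescent and 55 and 25 in senescent batch A libraries, and 47 to 56 against 5 to 13 in batch B, and reads are not known to be independent molecules, so the intervals cover the spread between libraries and not the capture of RNA.

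LDHB (chr12:21635342-21757857, minus strand) encodes the heart-type subunit, which favours the oxidation of lactate to pyruvate. In batch A its level was 731 and 738 normalised read counts in non-senescent cells and 513 and 541 in senescent cells. In batch B it was 426 to 485 in non-senescent and 197 to 239 in senescent cells. The groups were separate within each batch, but the senescent libraries of batch A were above the non-senescent ones of batch B. LDHB fell 1.79-fold (-0.84 ± 0.10, limma adjusted p = 3.30e-06). The fall was -0.48 ± 0.13 in batch A, under the fold limit, and -1.02 ± 0.09 in batch B, and the difference of -0.54 passed the interaction test (adjusted p = 0.0851). It was the only gene of the 10 to do so, against 4.21% of all tested genes, and it lost that call when any of 7 single libraries was left out (non-senescent A1, A2, B2 and B3, senescent A1, A2 and B2), with adjusted p values from 0.0816 to 0.313 over the 12 omissions. LDHBP1, a processed copy of LDHB in the same table that was looked up after its values were seen, held 144 reads in the non-senescent group and 287 in the senescent group and was called higher (0.64 ± 0.27, adjusted p = 0.0714). Salmon divides reads between such copies, so LDHB is uncertain to that degree: with the LDHBP1 reads added, LDHB was still called, at -0.65 (adjusted p = 1.16e-05).

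**Figure D2:**
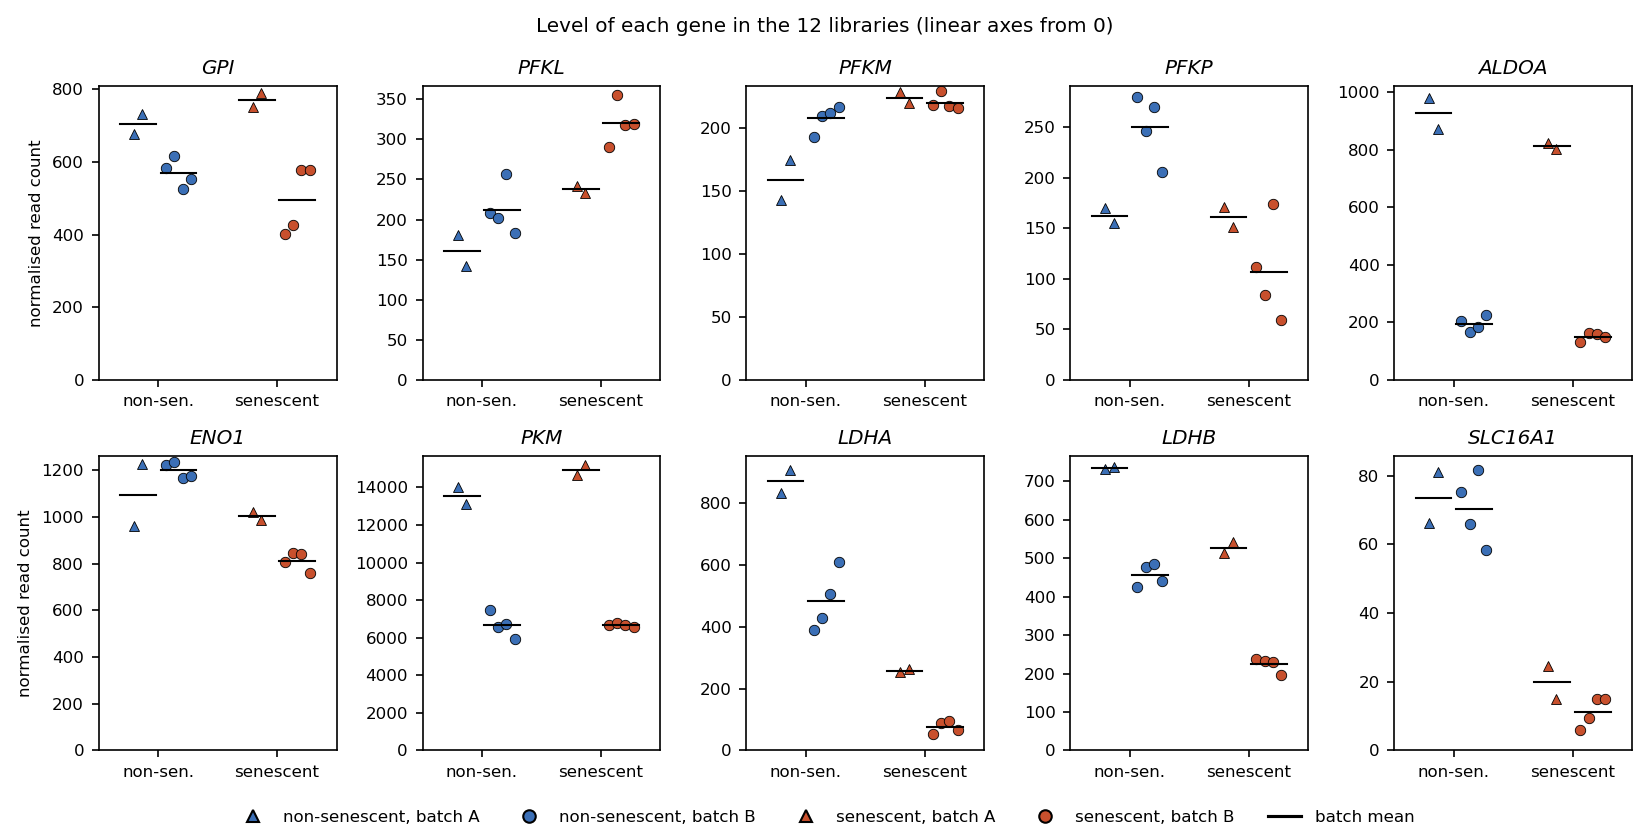
Each panel shows 1 gene, with its level in normalised read counts on a linear axis from 0 in the 12 libraries, by group (colour) and batch (triangles A, circles B), and lines mark the mean of each group in each batch. LDHA and SLC16A1 separate completely between groups, LDHB separates within each batch only, and PKM and ALDOA differ more between batches than between groups.

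The promoter windows of LDHA, which fell most, of LDHB, its partner subunit, and of PFKL, the gene that rose, are shown because all 3 genes changed RNA level with group. Each window runs from 250 bases before to 50 bases after a transcription start, is from RefSeq on GRCh38.p14, and is written 5′ to 3′ on the gene's strand. The windows are chr11:18394313-18394612 (plus) for LDHA, chr12:21657793-21658092 (minus) for LDHB and chr21:44299803-44300102 (plus) for PFKL. Capitals mark each match to ACGTG or GCGTG, the core of the hypoxia response element bound by HIF, on either strand.
LDHA: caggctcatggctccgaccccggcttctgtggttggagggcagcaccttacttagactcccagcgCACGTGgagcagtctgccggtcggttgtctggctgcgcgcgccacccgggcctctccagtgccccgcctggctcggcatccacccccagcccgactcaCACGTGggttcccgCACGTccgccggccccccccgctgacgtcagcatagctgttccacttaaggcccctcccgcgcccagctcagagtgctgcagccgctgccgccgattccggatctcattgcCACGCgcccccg
LDHB: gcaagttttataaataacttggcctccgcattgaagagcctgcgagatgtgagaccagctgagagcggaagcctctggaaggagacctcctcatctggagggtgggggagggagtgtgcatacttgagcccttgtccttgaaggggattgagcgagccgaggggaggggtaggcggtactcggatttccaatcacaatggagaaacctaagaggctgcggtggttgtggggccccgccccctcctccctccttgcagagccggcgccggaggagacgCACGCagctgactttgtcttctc
PFKL: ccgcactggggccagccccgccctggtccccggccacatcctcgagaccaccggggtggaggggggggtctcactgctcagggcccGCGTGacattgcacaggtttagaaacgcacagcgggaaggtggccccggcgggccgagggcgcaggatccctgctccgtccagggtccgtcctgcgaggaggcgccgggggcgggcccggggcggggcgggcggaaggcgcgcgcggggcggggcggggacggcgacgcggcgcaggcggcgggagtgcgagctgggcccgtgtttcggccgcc
The table holds a further LDHA window, chr11:18396101-18396400, not printed, with 1 such match and no E-box. The printed LDHA window held 6 such matches, 4 of them inside 2 copies of the palindromic E-box CACGTG, which contains ACGTG on both strands and is bound by MYC and related factors. The LDHB and PFKL windows held 1 match each and no E-box. Windows were found for 9 of the 10 genes (21 windows). The HIF core was in 14 of 21 windows (66.7%), against 48.4% of 35116 windows of the same length in all genes. All 9 genes had at least 1 such window, but genes with several windows had more chances, so this is not comparable with the share per window. Some windows of PFKM and of ALDOA overlap, so windows are not independent and 1 site can be counted more than once. The E-box was in 2 windows (LDHA and ALDOA), against 7.26% of all windows. The Sp1 GC box GGGCGG was in 12 windows of 8 genes (45.0% of all windows), and the TATA box TATAAA in 2 windows of 2 genes, LDHB and PFKM (11.5%). A site for E2F (TTTCCCGC, TTTGGCGC, TTTCGCGC or TTTGCCGC, both strands) was in 2 windows, both of PFKM and overlapping, against 3.31%. These are matches of letters, and binding was not measured in the data used here.

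Phosphofructokinase commits sugar to glycolysis and is built from 3 subunits, the liver (PFKL), muscle (PFKM) and platelet (PFKP) types. The 3 genes changed differently: PFKL rose, PFKP fell and PFKM stayed within the fold limit. PFKL (chr21:44300051-44327376) was at 141 and 181 normalised read counts in non-senescent and 233 and 242 in senescent batch A libraries, and at 183 to 257 against 291 to 356 in batch B. The senescent libraries were above the non-senescent ones within each batch, although both senescent batch A libraries were below the highest non-senescent library of batch B. The log2 fold change was 0.59 ± 0.10 (limma adjusted p = 0.000207). Batch A gave 0.57 and batch B 0.60 (interaction adjusted p = 0.965). This is a 1.505-fold change, just over the fold limit, and it was under that limit in 7 of 15 alternative analyses and when any of 6 single libraries was left out (non-senescent A2, B1, B2 and B4, senescent A1 and B2), with values from 0.54 to 0.65 over the omissions.

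PFKP (chr10:3066333-3137718) was at 155 and 170 normalised read counts in non-senescent and 151 and 171 in senescent batch A libraries. In batch B it was at 206 to 280 in non-senescent and 59.8, 84.0, 111 and 174 in senescent libraries. The groups overlapped in batch A and were separate in batch B, where the senescent libraries also spread most. PFKP fell 1.84-fold in the fit over both batches (-0.88 ± 0.24, limma adjusted p = 0.00732). Batch A gave -0.01 ± 0.33, against -1.32 ± 0.24 for batch B. The difference between batches did not pass the test (interaction adjusted p = 0.117), and in batch A alone PFKP was not called (adjusted p = 0.950).

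PFKM (chr12:48105139-48146404) was at 143 and 174 normalised read counts in non-senescent and 220 and 228 in senescent batch A libraries, and at 193 to 216 against 215 to 229 in batch B. The groups were separate in batch A and overlapped slightly in batch B. The log2 fold change was 0.22 ± 0.10, with a 95% interval from 0.01 to 0.43 (limma adjusted p = 0.0873), under the fold limit.

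The ratio of 2 genes within a library does not depend on how libraries are scaled, so 5 ratios of related genes were compared by exact permutation of the group labels within batches, two-sided (420 arrangements, smallest possible p = 0.00476, Benjamini-Hochberg adjusted over the 5). Reads per transcript differ between genes, so only the change of a ratio is read and not its size. The log2 ratio of LDHA to LDHB was -0.15 to 0.47 in non-senescent (median 0.12) and -2.11 to -1.01 in senescent libraries (median -1.35). Every senescent library was below every non-senescent one. The ratio fell by 1.53 on the log2 scale, a 2.89-fold shift (exact permutation p = 0.00476, adjusted p = 0.00794) (batch A -1.27, batch B -1.66).

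The ratio of PFKP to PFKL was -0.09 to 0.43 in non-senescent and -2.40 to -0.50 in senescent libraries, again without overlap. It fell by 1.47 (exact permutation p = 0.00476, adjusted p = 0.00794) (batch A -0.58, batch B -1.92). The ratio of PFKM to PFKL fell by 0.37 (exact permutation p = 0.0238, adjusted p = 0.0238), a 1.29-fold shift (batch A -0.06, batch B -0.52), and leaving out non-senescent A2, B2 or B4 took its adjusted p to as much as 0.0571. Within batch A the 2 non-senescent libraries, at -0.34 and 0.30, lay on either side of the senescent ones.

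Partner isozymes outside the 10 genes were set against ENO1 and ALDOA in the same way. The log2 ratio of ENO2, the neuronal and neuroendocrine enolase, to ENO1 fell by 0.66 (exact permutation p = 0.00476, adjusted p = 0.00794) (batch A -0.70, batch B -0.64). The ratio of ALDOC, the brain-type aldolase, to ALDOA fell by 0.56 (exact permutation p = 0.0238, adjusted p = 0.0238) (batch A -0.83, batch B -0.43). For both, the batches lay far apart: the ENO2 to ENO1 ratio was 1.22 to 1.59 in non-senescent batch A and -0.51 to -0.29 in non-senescent batch B. The ENO2 to ENO1 shift is therefore seen within batches and not across all 12 libraries. For ALDOC to ALDOA the groups were separate in batch A only. In batch B they overlapped, at -0.97 to -0.28 in non-senescent and -1.41 to -0.62 in senescent libraries.

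**Figure D3:**
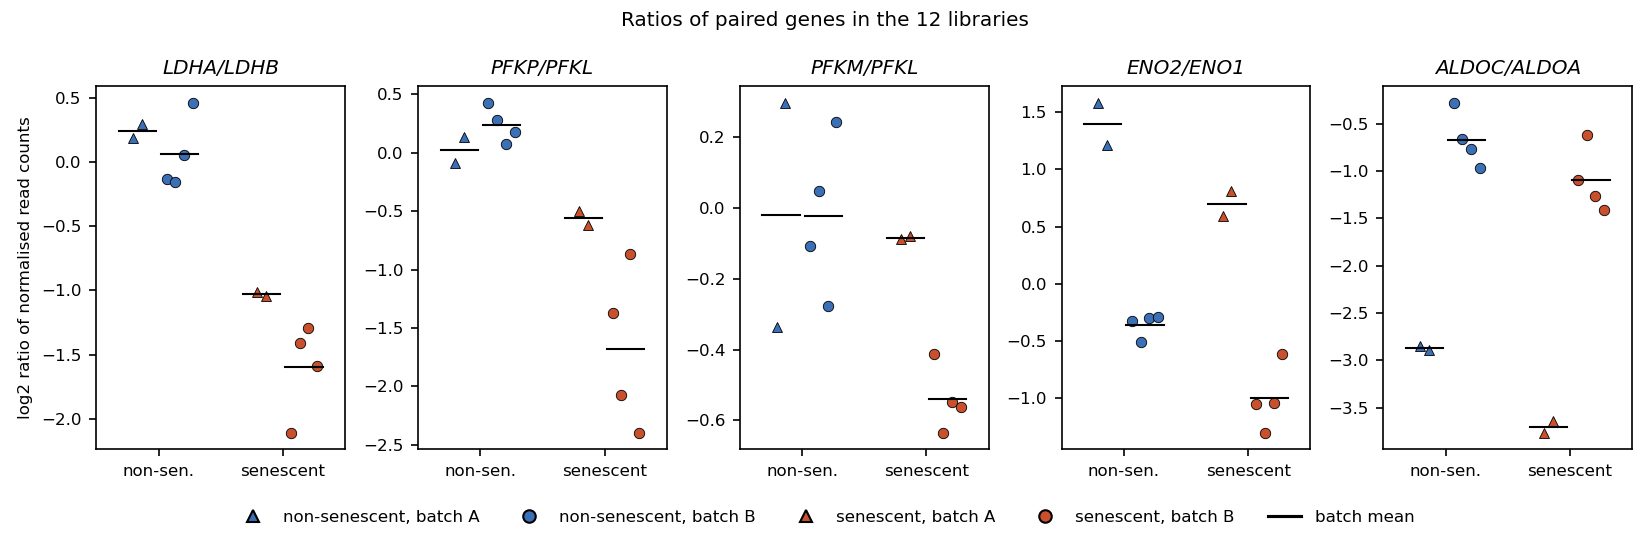
Each panel plots the log2 ratio of normalised read counts of 2 related genes in the 12 libraries, by group (colour) and batch (triangles A, circles B), with lines at the mean of each group in each batch; vertical axes differ between panels and do not start at 0. The LDHA to LDHB and PFKP to PFKL ratios do not overlap between groups, with senescent libraries at or below -1.01 and -0.50, while the ENO2 to ENO1 and ALDOC to ALDOA ratios separate the batches more than the groups.

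The remaining 4 enzymes changed little or not detectably. GPI (chr19:34359480-34402413), which interconverts glucose 6-phosphate and fructose 6-phosphate, was at 526 to 730 normalised read counts in non-senescent and 402 to 789 in senescent libraries. The groups overlapped, and the log2 fold change was -0.10 ± 0.10 (95% interval -0.32 to 0.12, limma adjusted p = 0.471). ALDOA (chr16:30064164-30070457), the aldolase that splits fructose 1,6-bisphosphate, was at 873 and 979 in non-senescent and 804 and 823 in senescent batch A libraries, and at 167 to 225 against 131 to 162 in batch B. Senescent libraries were lower within each batch, but batch A was 4.74-fold above batch B in non-senescent cells, far more than the change with senescence. That change was -0.31 ± 0.10 (limma adjusted p = 0.0162), under the fold limit.

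ENO1 (chr1:8861000-8879190), the enolase of most tissues, was at 961 to 1235 normalised read counts in non-senescent (median 1199) and 759 to 1020 in senescent libraries (median 842). The groups were separate in batch B and overlapped in batch A, where non-senescent A1 was the lowest of its group. The log2 fold change was -0.41 ± 0.09 (limma adjusted p = 0.00102), under the fold limit, where batch A gave -0.11 and batch B -0.56 (interaction adjusted p = 0.111). PKM (chr15:72199029-72231819), the pyruvate kinase of most tissues, was at 13104 and 14030 in non-senescent and 14647 and 15181 in senescent batch A libraries, and at 5915 to 7463 against 6594 to 6762 in batch B. Its level differed 2.03-fold between batches in non-senescent cells and hardly between groups, at 0.05 ± 0.06 (95% interval -0.08 to 0.18, limma adjusted p = 0.557). The 2 splice forms of PKM share this row and were not told apart.

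Across the 10 genes, 5 were separate between groups in the same direction in both batches (LDHA, SLC16A1, LDHB and ALDOA lower, PFKL higher). Such separation was found in 23.8% of all tested genes, 11.9% with the senescent group lower. The change was larger in size in batch B than in batch A for 8 of the 10 genes, against 54.4% of all tested genes, and the median change was -0.06 for batch A, against -0.47 for batch B. Batch A had the deeper libraries and fewer of them, and the part of this in the batch difference was not tested. Together the 10 genes took 0.257% to 0.264% of all reads in non-senescent and 0.243% in senescent batch A libraries, and 0.134% to 0.155% against 0.119% to 0.125% in batch B. Most of these reads were from PKM, which alone took 0.186% to 0.197% in non-senescent batch A and 0.0828% to 0.104% in non-senescent batch B.

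The RNA of the other glycolytic steps and of pyruvate handling was read from lists of genes by role. Of 11 tested genes for other enzymes of glycolysis, 5 were called lower (GAPDH, PGAM1, ENO2, ALDOC and ENO3) and 1 higher (PKLR), against 11.8% and 11.6% of all tested genes, with a median log2 fold change of -0.68 (0.012 over all tested genes). GAPDH, which oxidises glyceraldehyde 3-phosphate, fell by 0.68 ± 0.08, PGAM1, phosphoglycerate mutase, by 0.70 ± 0.08, ENO2 by 1.08 ± 0.09 and ALDOC by 0.87 ± 0.17. PKLR, the liver and red-cell pyruvate kinase, rose by 2.11 ± 0.33, from 57.2 to 111 normalised read counts in non-senescent libraries to 134 and 140 in senescent batch A and 519 to 720 in senescent batch B. Batch A gave 0.39 and batch B 2.97 (interaction adjusted p = 0.000641). PKLR and PKM catalyse the same step, and PKM did not pass the test.

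At glucose entry, 1 of 6 tested genes was called higher and none lower, against 11.6% and 11.8% of all tested genes. The called gene was SLC2A13 (0.82 ± 0.12), a carrier of myo-inositol and not of glucose. HK1, a hexokinase counted among the disallowed genes, was under the filter with 13 reads in all non-senescent and 24 in all senescent libraries, and HK2 had 3 and 1 (HK1 and HK2, like ENO3, PFKFB3, PDK2 and ZFP36L1 among called genes, were named after their values were seen). Of 5 tested genes that make or remove the fructose bisphosphates, 1 was called higher and 1 lower, against 11.6% and 11.8% of all tested genes. PFKFB4, which sets the level of an activator of phosphofructokinase, rose by 0.98 ± 0.13, and PFKFB3, a further gene of that family, was called lower at -1.09 ± 0.31.

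Of 7 tested genes for other lactate and pyruvate carriers and their partners, 3 were called lower and 0 higher (median -0.21), against 11.8% and 11.6% of all tested genes. MPC1, a subunit of the mitochondrial pyruvate carrier, fell by 1.11 ± 0.08. EMB, a membrane partner of monocarboxylate carriers, fell by 1.10 ± 0.08. BSG, another such partner, went the other way, at 0.55 ± 0.10 (limma adjusted p = 0.000285). It was under the fold limit, with senescent libraries higher within each batch (named after its values were seen). SLC16A3, which encodes the lactate exporter of highly glycolytic cells, was under the filter with a total of 11 reads in non-senescent and 34 in senescent cells (named after its values were seen). Of 13 tested genes for pyruvate dehydrogenase, its regulators and pyruvate carboxylase, 2 were called higher and 0 lower, PDK4 (1.39 ± 0.26) and PDK2 (0.67 ± 0.26), kinases that inhibit the complex, against 11.6% of all tested genes called higher. Of 10 tested shuttle genes, which move NADH equivalents into mitochondria, 1 was called higher and 2 lower, against 11.6% and 11.8% of all tested genes. SLC25A12, an aspartate-glutamate carrier, rose by 1.08 ± 0.09, while GOT1 fell by 0.81 ± 0.12 and the oxoglutarate carrier SLC25A11 by 0.69 ± 0.15. These belong to the malate-aspartate shuttle, as does GOT2, which was at 0.34 ± 0.11, under the fold limit (named after its values were seen). Adjusted p values of limma for the genes said here to rise or fall were under the limit of 0.1, which 45.5% of all genes reached.

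**Figure D4:**
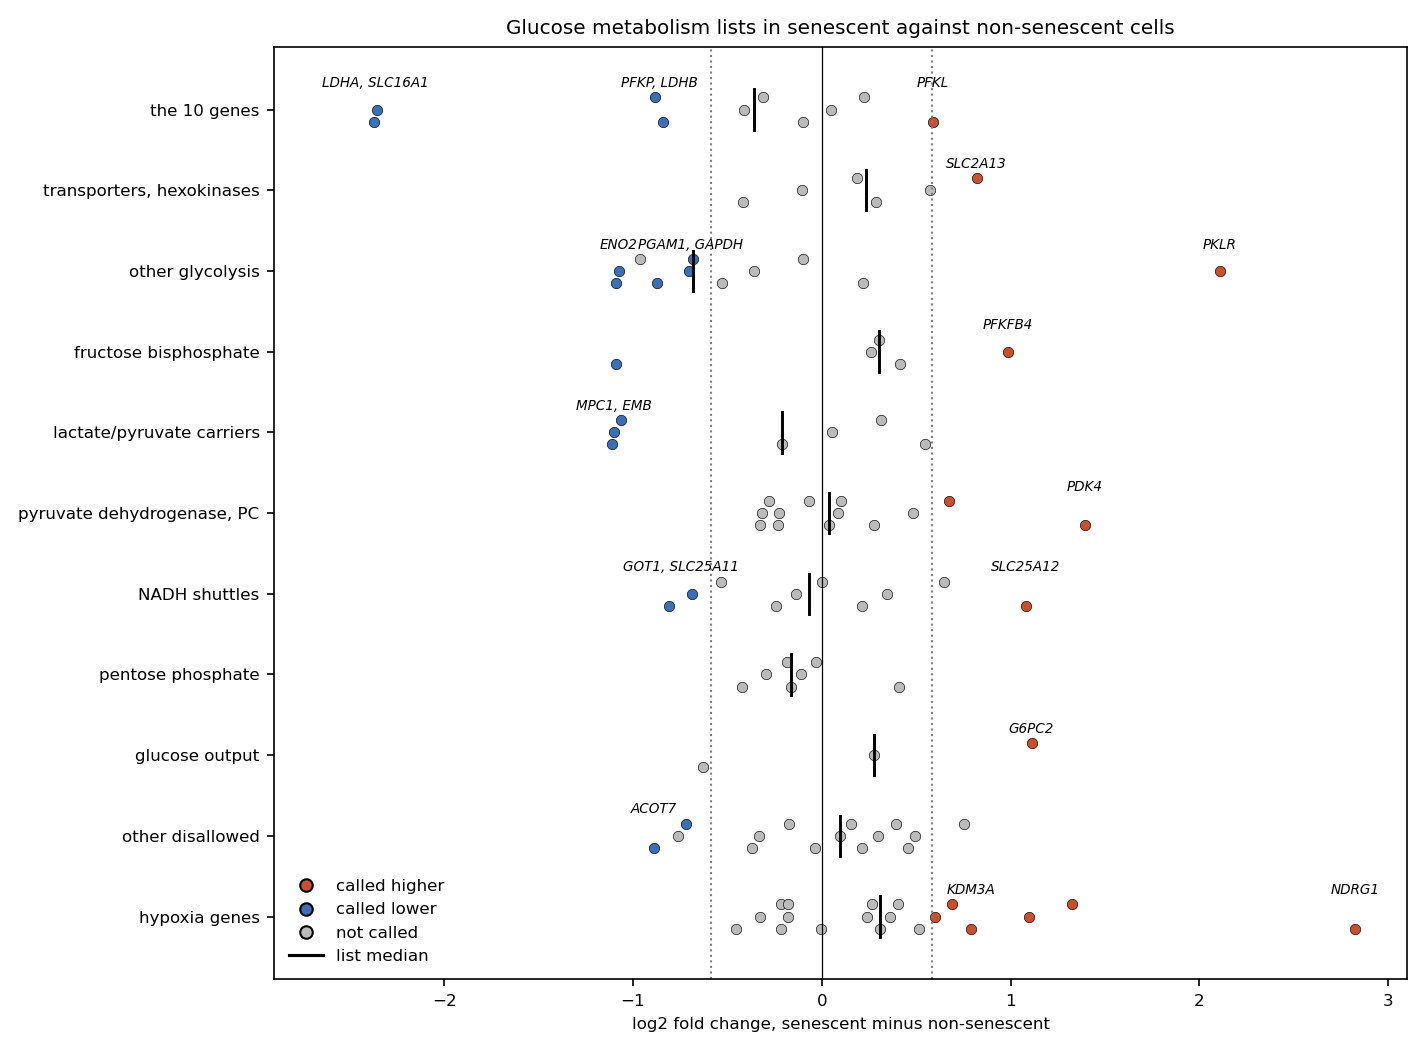
Each point is a tested gene at its log2 fold change (horizontal axis, senescent minus non-senescent), in rows by role, coloured where called higher or lower, with a black line at each list's median and dotted lines at a fold change of 1.5. The 10 genes (median -0.36) and the other glycolytic genes (median -0.68) lie mostly left of 0, while the list of hypoxia genes (median 0.31) has 6 called genes, all to the right.

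Of the other genes described as disallowed in beta cells, 15 of 20 passed the filter, 2 were called lower (ACOT7 and ZFP36L1) and 0 higher, near the 11.8% and under the 11.6% of all tested genes, and the median was 0.10. ACOT7, an acyl-CoA thioesterase, fell by 0.89 ± 0.27 (limma adjusted p = 0.0141). In log2 fold change LDHA and SLC16A1 were at -2.37 and -2.36, against -0.89 for ACOT7, the lowest of these 15. The genes whose batch-centred log2 levels were most like LDHA over the 12 libraries were U2AF2, a splicing factor (Pearson r = 0.994), GLO1, which detoxifies methylglyoxal (r = 0.993), and HSPA8, a chaperone (r = 0.991). Those most like SLC16A1 were SAC3D1 (r = 0.983), NMU (r = 0.983) and UNG, a DNA repair enzyme (r = 0.981). These correlations are descriptions over libraries that share the group difference, and they have no test.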

How the data were processed

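RNA of 6 senescent and 6 non-senescent EndoC-βH3 libraries was analysed from 1 deposited table of 35337 genes. The authors trimmed the reads with Cutadapt, quantified them on GRCh38 with Salmon 0.13.1 and divided the read numbers by DESeq2 size factors. The deposited values are therefore a signal, called normalised read counts. The annotation and the handling of molecular identifiers were not given in the sources used here. The deposited log2 fold changes, standard errors and test scores, and p-values of the authors' comparison were not used. All non-zero values (196021) were whole multiples of the smallest value in their column to a relative tolerance of 1e-06 (100%), so whole reads were recovered. Libraries held 4672924 to 17106776 reads.

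Genes with a mean of at least 5 (13847) were fitted on log2(normalised read count + 1) in R 4.3.3 with limma 3.58.1. This scale understates the change of low genes. The fit held batch and group and used the intensity trend. Calls needed a Benjamini-Hochberg adjusted p under 0.1 over all tested genes and a fold change over 1.5, the study's limits. The batch by group interaction was tested at an adjusted p under 0.1. As alternatives, the recovered reads were tested with edgeR 4.0.16 (quasi-likelihood) and with DESeq2 1.42.0, which called 3238 and 3223 genes against 3237 for limma, and the pseudocount, filter, scaling, batch term, trend, weights and libraries were varied. The procedure was tested on simulated data. In 14 pairs of libraries of 1 group and batch, the chi-square of the read numbers per degree of freedom was 4.14 to 7.61, so no pair held the same values, which does not show separate cultures.

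Positions were from GENCODE v44 and promoter windows from RefSeq. Pathway lists were matched by symbol. Named genes were the 10 genes, up to 3 rises and 3 falls per list among called genes with a mean of at least 20 and groups separate in both batches, the partner genes of the ratios, and the 3 genes most like LDHA and SLC16A1. List counts include some genes that are not reported here singly. The genes, lists and tests were chosen with earlier results of these data known.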

Additional observations from a re-analysis of the deposited data

Results flagged for a closer look

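Within groups of 4 or 6 libraries, the most distant library was compared with the range of its group by Dixon's criterion at the 95% level, in 60 groups of the 10 genes and the 5 ratios, and 3 groups held such a library, where chance gives about 1 in 20. ENO1 in non-senescent cells was lowest in library A1, at 961 normalised read counts, with a gap to the nearest library of 0.776 of the range of the group. LDHB in the senescent libraries of batch B was lowest in B4, at 197 normalised read counts, with a gap of 0.834 of the range. The log2 ratio of ENO2 to ENO1 in the non-senescent libraries of batch B was lowest in B2, at -0.51, with a gap of 0.847 of the range.

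The senescence response differed between batches, by limma's interaction test over all genes, for 2 of 27 genes, the 10 and those the naming rule took from the lists, against 4.21% of all tested genes. LDHB fell further in batch B than in batch A, by -0.54 on the log2 scale (adjusted p = 0.0851). PKLR rose more in batch B, by 2.58 on the log2 scale (adjusted p = 0.000641). Other genes of the lists that passed the test, outside the naming rule, were TPI1, PFKFB2, PDP2, LMO4, MDH1 and EPAS1 (limma adjusted p from 0.00905 to 0.0673).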

How the results depend on the processing

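The number of genes called, 3237, stayed within 1.5 times under 14 of 15 alternatives and was 2143 without the batch term, and 3142 to 3277 when single libraries were left out. The number of the 10 genes called was 2 in batch A alone (LDHA and SLC16A1), where 3241 of all 13847 tested genes were called. It was 4 to 5 with single libraries left out. PFKP was not called in batch A alone (-0.01), nor was LDHB (-0.48, under the fold limit). In batch A alone GAPDH, PGAM1, GOT1, SLC25A11, ACOT7 and PKLR were not called either, without the batch term ENO2, KDM3A and SLC25A11 were not, and with array weights SLC25A11 was not. PFKL fell under the fold limit with a pseudocount of 8, with equal totals (0.48), upper quartile scaling, batch A alone, array weights, edgeR and DESeq2. With equal totals the median of all genes was -0.09 and 37.0% of calls were higher, against 49.6%. The number of the 10 genes differing between batches, 1, was 2 with a pseudocount of 8, 4 with a mean of at least 20, 0 with equal totals and 0 to 3 with single libraries left out. With single libraries left out, LDHA/LDHB ranged from -1.58 to -1.41, PFKP/PFKL from -1.61 to -1.27, PFKM/PFKL from -0.48 to -0.29, ENO2/ENO1 from -0.75 to -0.60 and ALDOC/ALDOA from -0.68 to -0.50. Permuting over all 12 libraries, exactly, left PFKM/PFKL (-0.37, adjusted p = 0.0577), ENO2/ENO1 (-0.66, 0.311) and ALDOC/ALDOA (-0.56, 0.485) without a call. Nothing in the labels says whether replicate names pair the samples. Same-named libraries correlated at -0.05 to 0.02 after the mean of each group in each batch was removed. With 2 libraries per group in batch A, A1 and A2 must give the same value there. These correlations cannot show whether same-named libraries were handled together. With the replicate block, 3211 genes were called, and the ratios, tested by exact sign flips over 6 pairs, stayed at -1.53 (LDHA/LDHB), -1.47 (PFKP/PFKL) and -0.66 (ENO2/ENO1), each with an adjusted p of 0.0521, and at -0.37 (PFKM/PFKL) and -0.56 (ALDOC/ALDOA), with 0.0625. The ratios with an adjusted p of 0.0521 had the smallest unadjusted p that exact sign flips of 6 pairs can give. The cause of the changes between settings was not tested. Of the 10 genes SLC16A1 had the fewest reads, at 5 to 13 reads per senescent batch B library.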

Other observations

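Genes of the hypoxia program outside glycolysis were listed apart from the glycolytic genes above. Of 19 tested (HIF subunits, hydroxylases and targets), 6 were called higher and 0 lower, against 11.6% and 11.8% of all tested genes. The median log2 fold change was 0.31. Those called were NDRG1, KDM3A, ADM, ANKRD37 and the hydroxylase genes EGLN1 and HIF1AN. HIF1A was at -0.32 ± 0.10 (limma adjusted p = 0.0172), under the fold limit. Of these, all but NDRG1 and KDM3A were named after their values were seen. Any link to the fall of LDHA was not tested. NDRG1, a gene raised by hypoxia and by differentiation, was at 34.8 to 79.5 normalised read counts in non-senescent and 308 to 470 in senescent libraries, without overlap, and rose by 2.83 ± 0.13 (limma adjusted p = 2.49e-11). KDM3A, a histone demethylase, rose by 0.79 ± 0.19.

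The pentose phosphate pathway, which branches from glucose 6-phosphate, had 7 tested genes, with a median of -0.16. Of these, 0 were called by limma, against 23.4% of all tested genes. Another 2 had an adjusted p under 0.1 with a fold change under 1.5, and 45.5% of all tested genes reached that adjusted p. G6PC2, the islet glucose 6-phosphatase, was at 29.4 to 75.8 normalised read counts in non-senescent and 78.7 to 108 in senescent libraries, and rose by 1.11 ± 0.19.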
